A study of Mus musculus with 16 samples.

Results

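Of the 6717 genes that were active in untreated WT mouse embryonic stem (ES) cells, 23 fell at least 4-fold after doxorubicin in WT cells and in Cfp1-/- cells alike. A gene was taken as active when the mean of its normalized counts in untreated WT cells was at least 500, and as lost when no more than 25% of the untreated mean was left in treated cells, asked separately of each line. Among the 22375 genes measured, 73 active genes met the limit in WT cells, 78 met it in Cfp1-/- cells and 34 met it in both. Of these 34, 7 replication-dependent histone genes and the regulators Nanog, Pax6, Zic2 and Mycn were set aside by name, which left Zic5, Otx2, Eras, Nfib, Lef1, Nr0b1, Sgk1, Sall1, Nr5a2, Zfp42, Dusp27, Pim1, Nrf1, Ptch1, Slc6a15, Spry4, 1700019D03Rik, Fam60a, Dlc1, Kdm3a, Socs2, Gm13152 and Ddx58. By their known functions 10 are transcription factors, 8 act in signalling, 2 act on chromatin and 3 do neither. The genes were thus selected on these normalized counts of treated and untreated cells, and the size of the loss is described here and not tested.

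All cells were of the 129/OLA strain background and were grown on gelatin in medium with serum and the cytokine LIF. WT cells were of the E14Tg2a line, and Cfp1-/- cells lack Cfp1, the protein of the gene Cxxc1, in all conditions. Each line was left untreated or received doxorubicin for 6 hours, at 1 μM by the treatment protocol although the label of each treated sample gives 1 mM. Each of the 4 groups has 2 biological replicates, each sequenced in 2 technical runs that were summed here, so n = 2 throughout. Each genotype is represented by 1 cell line, so that a difference between the lines cannot be told apart from a difference between clones, and nothing in the labels says whether the replicates were separate cultures. The p-values thus measure only the spread between these samples, which may be technical.

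Doxorubicin blocks topoisomerase II and so breaks DNA, which stabilizes p53, a transcription factor that raises genes of cell cycle arrest and, in ES cells, is known to lower genes that keep the pluripotent state. That state rests on a network of transcription factors, held in place by LIF through Jak kinases and Stat3 and pushed towards differentiation by FGF and ERK signalling. Cfp1 binds unmethylated CpG dinucleotides and brings the Set1 complex, which trimethylates histone H3 at lysine 4, to CpG islands, the CpG-rich stretches found at many promoters.

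Depth lay between 14880589 and 29422711 counts in the 8 biological replicates. Cxxc1 had 616 to 1412 counts in the WT libraries and 1 to 5 in the Cfp1-/- libraries, where up to 3 counts were treated as the floor. ES cell markers were present in all 8, with summed normalized counts over 10 genes of 87253 to 108068 in untreated WT, 82649 to 85462 in untreated Cfp1-/-, 31596 to 37577 in treated WT and 28952 to 34787 in treated Cfp1-/- cells, and Zfp42 is one of the 10. The summed counts of 8 fibroblast markers were 245.0 to 262 in untreated and 424 to 572 in treated WT cells, and 138 (both replicates) and 406 to 556 in Cfp1-/- cells, with the marker Lum at the floor in every library. Those of 7 endoderm markers ranged from 141 to 417 over the 8 libraries. Those of 5 trophectoderm markers were higher in treated cells of both lines, at 90.9 and 185 in untreated and 269 and 507 in treated WT cells, and at 228 and 108 in untreated and 462 and 473 in treated Cfp1-/- cells. The sums of the fibroblast and trophectoderm markers thus rose with the treatment, but only some of the markers did. At an edgeR adjusted p-value under 0.05, 3 of 7 fibroblast markers tested rose in each line. Of 4 trophectoderm markers tested 2 rose in WT and 1 in Cfp1-/- cells, and none of either list fell. Over all genes tested 26.5% rose in WT and 27.8% in Cfp1-/- cells. The part of such cells in the results was not tested. In these bulk samples fewer expressing cells and less RNA per cell cannot be told apart. The second technical run of replicate 1 of treated Cfp1-/- cells stands apart, since 225 of 280 genes on chromosome X and 209 of 291 on chromosome 19 that had at least 200 counts in the first run had 0 in the second. No member lies on chromosome 19, and the 2 members on chromosome X, Eras and Nr0b1, are given with and without that run. In that run the members on autosomes had 0.379 to 0.875 times their counts in the first. The chi-square per degree of freedom between the 2 runs was 42.9 for treated Cfp1-/- replicate 1 and 9.61 for treated WT replicate 1. It was 0.998 to 1.05 for the other libraries. Treated WT replicate 1 had 0 such lost genes on chromosomes X and 19, and why its runs differ was not tested.

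**Figure D1:**
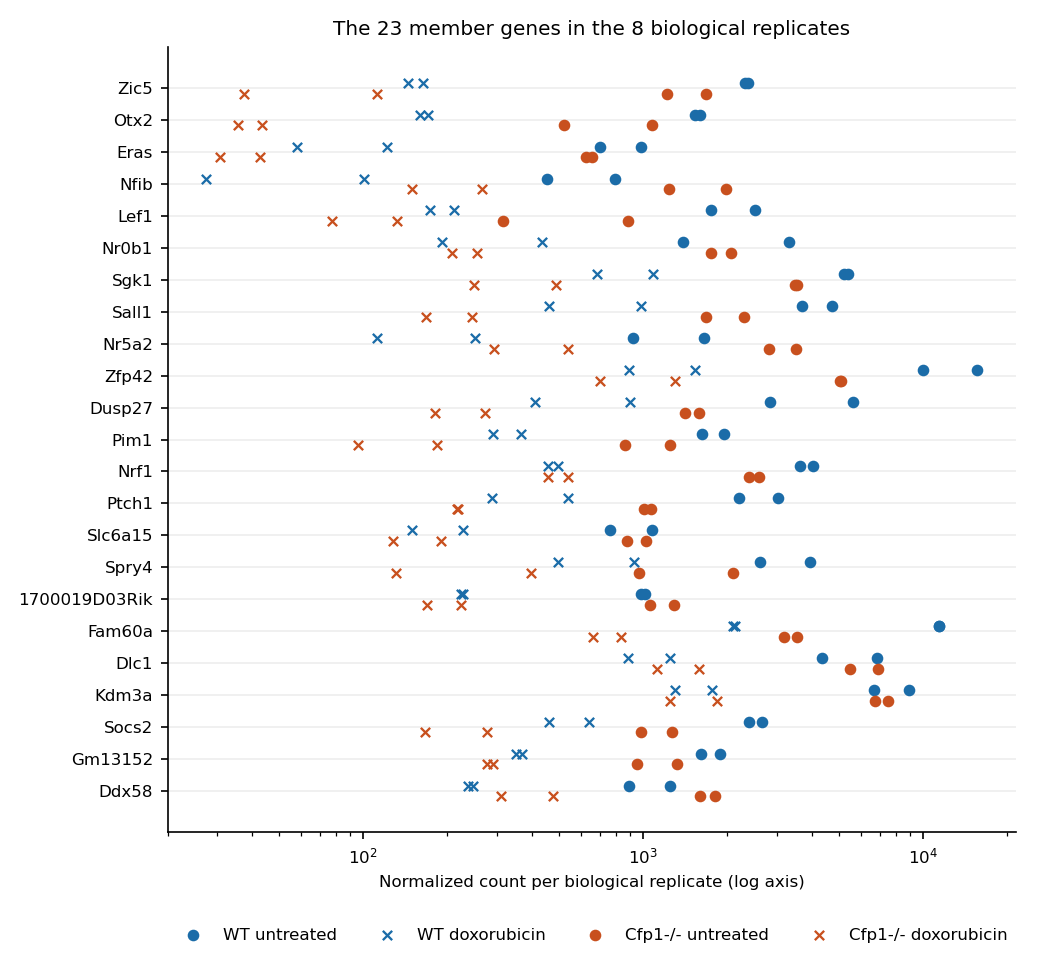
Normalized count (log axis) of each of the 23 genes in each of the 8 biological replicates, with circles for untreated and crosses for doxorubicin-treated cells, and with WT in blue and Cfp1-/- in orange. In every gene and both lines the treated libraries lie below the untreated ones, and Zic5, Otx2 and Eras at the top of the plot are the 3 with the lowest mean log2 ratio of treated to untreated cells.

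Across the 23 genes a median of 16.7% of the untreated level was left in WT cells (range 6.55% to 22.6%) and of 16.7% in Cfp1-/- cells (4.94% to 24.9%). Over all active genes the median log2 ratio of treated to untreated means was -0.38 in WT and -0.34 in Cfp1-/- cells, against -2.59 and -2.58 over the 23. In edgeR's quasi-likelihood fit all 23 were lower in treated cells of both lines, beside 21.8% of the 15758 genes tested in WT and 21.0% in Cfp1-/- cells at an adjusted p-value under 0.05, a count that the choice of the genes fixes. The lowest untreated library lay above the highest treated one by 2.80-fold or more in WT cells, the smallest gap being that of Spry4, and by 2.39-fold or more in Cfp1-/- cells, where it was that of Lef1. Within each replicate number alone 18 genes met the whole rule, and the exceptions were Ddx58 in replicate 2 of WT cells, with 27.7% left, and Zfp42, Fam60a, Gm13152 and Ddx58 in replicate 1 of Cfp1-/- cells, with 25.8% to 30.4% left, whereas Nfib had too low a count in replicate 2 of untreated WT cells. Less was left in Cfp1-/- than in WT cells for 13 genes and more for 10. The transcription factors had the lowest medians, with 11.5% left in WT and 13.0% in Cfp1-/- cells (n = 10), beside 17.5% and 16.2% for the signalling genes (n = 8).

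The number of genes that meet the rule depends on the scaling. The authors' normalization takes most genes as unchanged, and with total counts in its place 13 of the 23 remained and no gene was gained. In the edgeR fits the median log2 fold change of all genes tested was 0.06 in WT and 0.01 in Cfp1-/- cells with TMM scaling, and 0.37 and 0.23 with total counts. Just inside the limit lay Gm13152 (20.8% left in WT and 24.9% in Cfp1-/- cells) and Ddx58 (22.6% and 23.2%). Just outside it lay Zfp608 (18.0% and 25.3%) and Gabbr1 (21.3% and 25.6%). At the other limit, Nfib with a mean of 625 in untreated WT cells was the lowest inside, and Nlrc4 (485) and Grb7 (472) lay outside.

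**Figure D2:**
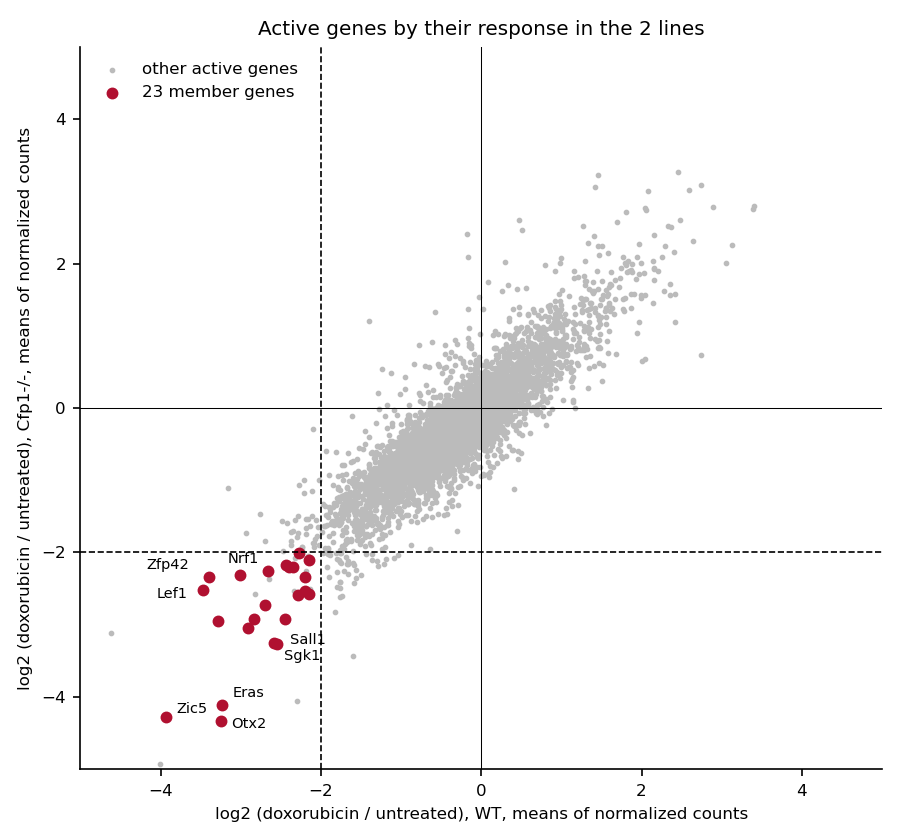
Log2 ratio of doxorubicin-treated to untreated means of normalized counts in WT (x axis) and Cfp1-/- cells (y axis) for the 23 genes (red) and the other active genes (grey), with dashed lines where 25% is left. The red points fill the lower left corner by the rule, and the grey points there are the 11 genes set aside by name.

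Genes of the naive pluripotency network made up 5 of the 23. Zfp42 (ENSMUSG00000051176, chr8:44380422-44392363, minus strand), which codes for the ES cell marker Rex1, had normalized counts of 15662 and 9967 in untreated and 1531 and 894 in treated WT cells. In Cfp1-/- cells the Zfp42 counts were 5035 and 5077 without and 1297 and 701 with doxorubicin, so 9.46% was left in WT and 19.8% in Cfp1-/- cells. Per kilobase of exon, Zfp42 was also the most abundant of the 23 in untreated WT cells, at 8701 and 5537 normalized counts per kb in replicates 1 and 2, and Nfib the least, at 53.2 and 30.4. Nr5a2 (ENSMUSG00000026398, chr1:138740161-138857004, minus strand), a nuclear receptor that sustains expression of Oct4, had 1657 and 920.5 normalized counts in untreated WT and 3511 and 2824 in untreated Cfp1-/- cells, and both untreated Cfp1-/- libraries lay above both WT ones. After doxorubicin the Nr5a2 counts were 250.2 and 112 in WT and 538 and 294 in Cfp1-/- cells, 14.05% and 13.1% of the untreated means. Sall1 (ENSMUSG00000031665, chr8:91551147-91568061, minus strand), a zinc finger partner of the network, went from 4716 and 3707 to 984 and 461 normalized counts in WT and from 2294 and 1680.1 to 245 and 168 in Cfp1-/- cells, with 17.1% and 10.4% left.

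The remaining 2 network genes lie on chromosome X. Nr0b1 (ENSMUSG00000025056, chrX:83437103-83441286, plus strand), which codes for the receptor-like repressor Dax1, had 3309 and 1389.6 normalized counts in untreated and 435 and 191 in treated WT cells, with replicate 1 above replicate 2 by 2.38-fold and 2.27-fold. In Cfp1-/- cells Nr0b1 had 2053 and 1748 without and 254 and 207 with doxorubicin, and 13.3% was left in WT and 12.1% in Cfp1-/- cells. Eras (ENSMUSG00000031160, chrX:7501402-7505733, minus strand), a Ras-like GTPase found in ES cells, had 984 and 704 in untreated and 122 and 58.1 in treated WT cells and 656 and 623 without and 42.9 and 30.8 with doxorubicin in Cfp1-/- cells, so that 10.7% and 5.76% were left. In treated Cfp1-/- replicate 1 the 2 runs counted 249 and 0 reads for Nr0b1 and 42 and 0 for Eras. Without the second run, 15.7% of Nr0b1 and 7.55% of Eras was left in Cfp1-/- cells, and both stayed within the limit. Eras overlaps the gene Pcsk1n on the opposite strand, and the authors' stranded counting keeps the strands apart.

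Of the 19 other genes on the naive network list that were measured, 14 fell and 0 rose in WT cells, and 14 fell and 0 rose in Cfp1-/- cells, at a median log2 fold change of -1.17 and -1.04. These 14 are 73.7% of the list, where 21.8% of all genes tested fell in WT and 21.0% in Cfp1-/- cells, and 42.1% and 38.5% of the active genes. Nanog, which met the limit in both lines and was only set aside by name, is among the 14. In the other direction 26.5% and 27.8% of all genes tested rose, and 11.1% and 11.9% of the active genes. The counts of the other gene lists are to be read against the same shares, and no list was tested as a set. All lists were chosen with earlier results of these data known, so their shares are not independent of these data. Prdm14, a repressor of differentiation genes, had the lowest log2 fold changes of these, -3.39 (SE 0.58) in WT and -3.93 (SE 0.53) in Cfp1-/- cells, from an untreated WT mean of 193 that lies below the limit used here. Sox2 fell by 1.40 (SE 0.24) and 1.71 (SE 0.24) on the log2 scale, whereas Pou5f1, which codes for Oct4, fell by 0.38 (SE 0.14) and 0.37 (SE 0.14).

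Zic5 and Otx2 belong to the formative and early lineage regulators, genes that act as ES cells leave the naive state. Zic5 (ENSMUSG00000041703, chr14:122856017-122864899, minus strand), a zinc finger factor of early neural development, had the lowest mean ratio of all 23. Its normalized counts were 2377 and 2322 in untreated and 144 and 164 in treated WT cells, and 1222 and 1682 without and 112 and 37.6 with doxorubicin in Cfp1-/- cells, which leaves 6.55% and 5.16%. Otx2 (ENSMUSG00000021848, chr14:49277354-49287319, minus strand), a homeobox factor of the formative state and the head region, went from 1597 and 1532 to 159.8 and 170.1 in WT and from 522 and 1078 to 35.7 and 43.4 in Cfp1-/- cells. That leaves 10.5% of Otx2 in WT and 4.94% in Cfp1-/- cells, where replicate 2 of the untreated cells had 2.07 times the count of replicate 1. Among the 17 other genes of this list that were tested, 10 fell and 2 rose in WT cells, and 10 fell and 1 rose in Cfp1-/- cells, with Foxd3 at -3.89 (SE 0.57) and -4.32 (SE 0.59) on the log2 scale. Zic2 and Pax6, which met the limit in both lines and were only set aside by name, are among the 10 of each line.

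Other developmental transcription factors among the 23 serve Wnt signalling and later lineages. Lef1 (ENSMUSG00000027985, chr3:130813389-130927274, plus strand), which carries the Wnt signal to DNA with β-catenin, had 1746 and 2506 normalized counts in untreated WT, 173 and 210.2 in treated WT, 316 and 881 in untreated Cfp1-/- and 77.6 and 132 in treated Cfp1-/- cells. Thus 9.01% of Lef1 was left in WT and 17.5% in Cfp1-/- cells, and its untreated Cfp1-/- replicates differed by 2.79-fold. Of 11 other Wnt pathway genes tested, 1 fell and 3 rose in WT cells and 2 fell and 4 rose in Cfp1-/- cells, and Axin2, a feedback inhibitor of the pathway, fell in both, with log2 fold changes of -1.17 (SE 0.30) and -1.64 (SE 0.33). Nfib (ENSMUSG00000008575, chr4:81936077-82351654, minus strand), a nuclear factor I protein of lung and brain development, went from 796 and 455 to 101 and 27.5 normalized counts in WT and from 1985 and 1234 to 266 and 149 in Cfp1-/- cells, with 10.3% and 12.9% left. Its paralogues moved the other way, with Nfia higher in treated cells by 3.17 (SE 0.34) and 2.64 (SE 0.29) and Nfic by 2.86 (SE 0.40) and 2.07 (SE 0.38) on the log2 scale in WT and Cfp1-/- cells. Nfix had a log2 fold change of 0.97 (SE 0.53) in WT, which did not pass, and of 1.17 (SE 0.41) in Cfp1-/- cells, which did.

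Nrf1 (ENSMUSG00000058440, chr6:29997988-30103458, plus strand), nuclear respiratory factor 1, which drives nuclear genes for mitochondria, was the most even of the 10 transcription factors, with replicates at most 1.18-fold apart in any group. It had 4035 and 3648 normalized counts in untreated and 496 and 456 in treated WT cells, and 2591 and 2392 without and 541 and 459 with doxorubicin in Cfp1-/- cells, leaving 12.4% and 20.1%. Gm13152 (ENSMUSG00000078496, chr4:146866526-146887595, plus strand), named Zfp982 in RefSeq, is a zinc finger gene with close relatives nearby on its chromosome, so its counts depend on how reads shared with them were left out. Its counts were 1876 and 1608 in untreated and 352 and 371 in treated WT cells and 954 and 1325 without and 290.04 and 278 with doxorubicin in Cfp1-/- cells, with 20.8% and 24.9% left. Without the affected run 26.3% of Gm13152 was left in Cfp1-/- cells, and the gene would not have been a member.

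In the LIF pathway 3 signalling genes were lost, Socs2, Pim1 and Sgk1. Socs2 (ENSMUSG00000020027, chr10:94847996-94879814, minus strand), an inhibitor of cytokine receptor signalling, went from 2663 and 2398 to 641 and 463 normalized counts in WT and from 1265 and 986 to 278 and 167 in Cfp1-/- cells, with 21.8% and 19.7% left. Pim1 (ENSMUSG00000024014, chr17:29627757-29632390, plus strand), a Stat3-induced kinase, went from 1622 and 1953 to 367 and 290.5 in WT and from 1245 and 864 to 183 and 95.4 in Cfp1-/- cells, leaving 18.4% and 13.2%. Sgk1 (ENSMUSG00000019970, chr10:21601990-21719709, plus strand), a kinase of the Akt type that responds to serum and steroids, had 5387 and 5222 in untreated and 686 and 1082 in treated WT cells and 3554 and 3499 without and 488 and 248 with doxorubicin in Cfp1-/- cells, or 16.7% and 10.4% left. Its untreated replicates lay at most 1.03-fold apart, whereas its treated replicates differed by 1.58-fold in WT and by 1.97-fold in Cfp1-/- cells. Of the 12 other genes on the LIF list, 9 fell and 1 rose in WT cells and 8 fell and 0 rose in Cfp1-/- cells. The receptor genes Lifr and Il6st were among those that fell, by 1.63 (SE 0.22) and 1.14 (SE 0.17) on the log2 scale in WT and by 1.36 (SE 0.21) and 2.05 (SE 0.18) in Cfp1-/- cells.

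Feedback inhibitors and receptors of other pathways were also lost. Spry4, an inhibitor of FGF and ERK signalling, had 3963 and 2606 normalized counts in untreated and 930.05 and 499 in treated WT cells and 2089.6 and 963 without and 397 and 131 with doxorubicin in Cfp1-/- cells, and replicate 1 lay above replicate 2 in all 4 groups. For Spry4 21.7% was left in WT and 17.3% in Cfp1-/- cells. Of the 16 other FGF and ERK genes, 8 fell and 1 rose in WT cells and 7 fell and 1 rose in Cfp1-/- cells, shares of 50.0% and 43.8% fallen that lie near those of the active genes. Among them Etv1 was at -1.72 (SE 0.32) and -2.37 (SE 0.35) on the log2 scale. Ptch1 (ENSMUSG00000021466, chr13:63610261-63674474, minus strand), the Hedgehog receptor, went from 3032 and 2204 to 538 and 287 normalized counts in WT and from 1005 and 1071 to 218 and 217 in Cfp1-/- cells, with 15.8% and 20.9% left. The other Hedgehog genes were mixed, as of 11 tested 3 fell and 4 rose in WT and 2 fell and 3 rose in Cfp1-/- cells, with the ligand-binding protein gene Hhip falling in both and Cdon and Gas1 rising in both. Dlc1 (ENSMUSG00000031523, chr8:37630805-38015490, minus strand), a known tumour suppressor gene, had 6862 and 4364 in untreated and 1252 and 882 in treated WT cells and 6888 and 5504 without and 1585 and 1122 with doxorubicin in Cfp1-/- cells, leaving 19.01% and 21.8%. Dusp27 (ENSMUSG00000026564, chr1:168028284-168058029, minus strand), of the dual specificity phosphatase family, went from 5627 and 2852 to 897 and 411 in WT and from 1412 and 1589.7 to 272 and 180.3 in Cfp1-/- cells, leaving 15.4% and 15.1%.

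Both chromatin genes were among the most highly counted. Kdm3a (ENSMUSG00000053470, chr6:71538968-71582899, minus strand) removes methyl groups from lysine 9 of histone H3, and its normalized counts were 8939 and 6676 in untreated and 1766 and 1301 in treated WT cells and 7495 and 6719 without and 1832 and 1245 with doxorubicin in Cfp1-/- cells. The Kdm3a groups of the 2 lines overlap in both conditions, and 19.6% and 21.6% was left. Among 9 other H3K9 demethylases and Tet enzymes, 5 fell and 2 rose in WT and 5 fell and 1 rose in Cfp1-/- cells, with the Kdm3a paralogues Jmjd1c and Kdm3b lower by 1.41 (SE 0.14) and 0.88 (SE 0.26) in WT and by 1.40 (SE 0.14) and 1.23 (SE 0.26) in Cfp1-/- cells on the log2 scale. Fam60a (ENSMUSG00000039985, chr6:148869557-148894989, minus strand), a subunit of the Sin3 histone deacetylase complex, had 11457 and 11375 in untreated and 2127 and 2098 in treated WT cells, with replicates 1.01-fold apart in both. In Cfp1-/- cells Fam60a had 3197 and 3560.4 without and 836 and 663 with doxorubicin, and 18.5% was left in WT and 22.2% in Cfp1-/- cells. Of 16 other Sin3 complex genes 6 fell and 1 rose in WT and 6 fell and 0 rose in Cfp1-/- cells, and the 37.5% that fell in each line is no more than the share of active genes. The scaffold gene Sin3a fell by 1.33 (SE 0.16) in WT and 1.29 (SE 0.16) in Cfp1-/- cells on the log2 scale.

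The 3 remaining genes have no shared function. Ddx58 (ENSMUSG00000040296, chr4:40150806-40186861, minus strand), which codes for the viral RNA sensor RIG-I, went from 1246 and 892 to 237 and 247 normalized counts in WT and from 1805 and 1591 to 477 and 309 in Cfp1-/- cells. Of 8 other genes of the RIG-I-like receptors and their signalling, 1 fell and 2 rose in WT and 2 fell and 1 rose in Cfp1-/- cells, with the related receptor gene Dhx58 higher by 1.68 (SE 0.38) and 1.15 (SE 0.35) on the log2 scale. Slc6a15 (ENSMUSG00000019894, chr10:102830477-102882011, plus strand), a transporter of neutral amino acids, had 761 and 1079 in untreated and 149 and 227 in treated WT cells and 877 and 1028 without and 189 and 127 with doxorubicin in Cfp1-/- cells, with 20.5% and 16.6% left. 1700019D03Rik (ENSMUSG00000043629, chr1:52979168-53020104, minus strand), a gene with no assigned function, went from 983 and 1017 to 228 and 223 in WT and from 1062 and 1286 to 224 and 169 in Cfp1-/- cells, leaving 22.5% and 16.7%. As a check of the treatment, 11 of 12 p53 target genes rose in WT and 10 of 12 in Cfp1-/- cells and 0 fell, with Cdkn1a higher by 3.33 (SE 0.26) and 2.07 (SE 0.24) and Mdm2 by 2.69 (SE 0.18) and 2.35 (SE 0.17). Of 8 housekeeping genes 2 fell in WT (Hprt and Sdha) and 1 in Cfp1-/- cells (Tbp). Hprt cannot serve as a reference between these lines, as it was lower by 6.53 (SE 0.29) on the log2 scale in untreated WT than in untreated Cfp1-/- cells. Its fall in WT cells thus started from a far lower level than that in Cfp1-/- cells, and the cause of this gap was not tested.

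CpG-rich and CpG-poor promoters both occurred among the 23 genes. The ratio of observed to expected CpG dinucleotides was taken over 500 bases either side of the transcription start. It was at least 0.6 for 10 of the 23 (43.5%, exact 95% binomial interval 23.2% to 65.5%). The share was 83.7% of the 6689 other active genes with an annotated start and 62.2% of all genes tested. The interval takes genes as independent draws, which genes chosen by a rule are not, so it cannot decide between these shares. With the outer end of the gene as its start, a choice made after seeing the data, the shares were 39.1% of the 23 and 82.8% of the other active genes. The same share was 66.7% of the 39 active genes that met the limit in WT cells alone, 63.6% of the 44 that met it in Cfp1-/- cells alone, 81.8% of the 11 set aside by name, and 76.5% of the 579 that lost at least 50% in both lines without meeting the limit. Median ratios were 0.553 in the 23 and 0.784 in the other active genes. The lowest ratios were those of Nr5a2 (0.123), Dusp27 (0.159) and Gm13152 (0.23), and the highest those of Fam60a (0.961), Kdm3a (0.92) and Nfib (0.916). With the outer end of the gene as its start Nfib was at 0.236, and 1700019D03Rik, at 0.507 otherwise, was the lowest at 0.101. These are counts over chosen genes, with no test.

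The 250 bases upstream of the start, read 5′ to 3′ on the gene's strand from the NCBIM37 genome, show the ends of this range, with each CpG in capitals. Nr5a2 (chr1:138857005-138857254, minus strand) and Dusp27 (chr1:168058030-168058279, minus strand) have 2 CpGs each, whereas Kdm3a (chr6:71582681-71582930, minus strand) has 31 and Fam60a (chr6:148893349-148893598, minus strand) has 33.
Nr5a2: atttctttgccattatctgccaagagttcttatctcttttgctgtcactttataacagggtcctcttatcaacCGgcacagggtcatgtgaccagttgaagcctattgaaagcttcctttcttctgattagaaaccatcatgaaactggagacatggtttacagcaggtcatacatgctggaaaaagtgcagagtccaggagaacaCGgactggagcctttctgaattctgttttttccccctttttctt
Dusp27: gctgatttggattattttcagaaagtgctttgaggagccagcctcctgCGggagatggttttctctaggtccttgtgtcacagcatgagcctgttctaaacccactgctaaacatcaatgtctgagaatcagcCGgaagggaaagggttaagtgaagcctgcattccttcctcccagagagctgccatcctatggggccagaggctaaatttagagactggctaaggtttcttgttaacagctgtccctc
Kdm3a: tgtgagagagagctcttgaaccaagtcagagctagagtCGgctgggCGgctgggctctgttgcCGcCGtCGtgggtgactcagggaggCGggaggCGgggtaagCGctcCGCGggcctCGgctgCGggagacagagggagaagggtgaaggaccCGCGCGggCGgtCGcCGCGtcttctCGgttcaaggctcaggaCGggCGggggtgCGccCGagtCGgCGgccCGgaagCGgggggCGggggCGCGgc
Fam60a: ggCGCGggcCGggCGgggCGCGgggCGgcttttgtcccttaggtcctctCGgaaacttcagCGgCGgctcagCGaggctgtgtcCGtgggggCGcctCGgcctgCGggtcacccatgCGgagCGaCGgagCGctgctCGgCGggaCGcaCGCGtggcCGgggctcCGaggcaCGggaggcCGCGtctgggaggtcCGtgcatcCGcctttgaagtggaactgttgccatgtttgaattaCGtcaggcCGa

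**Figure D3:**
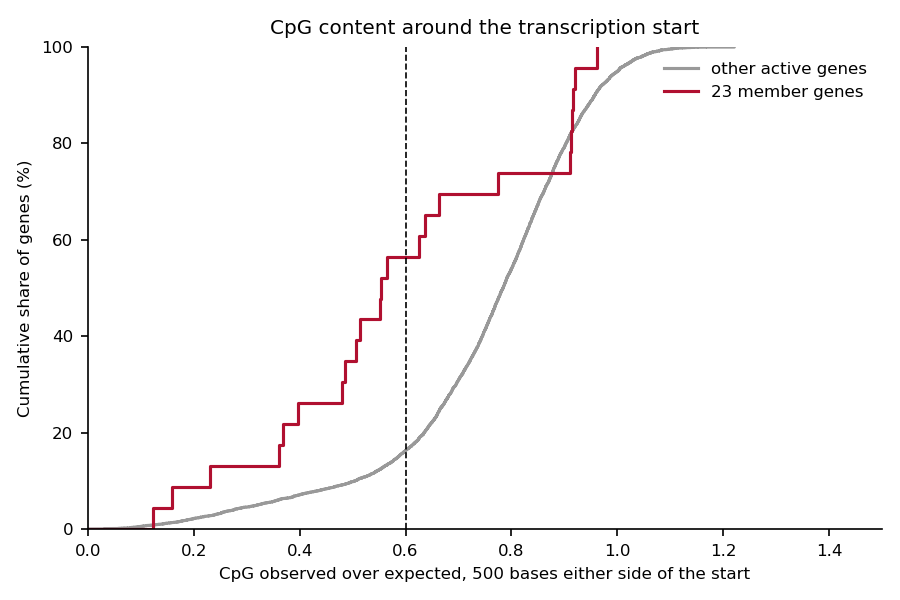
Cumulative share of genes (%) against the ratio of observed to expected CpG dinucleotides in the 500 bases either side of the transcription start, for the 23 genes (red) and the other active genes (grey). The dashed line marks the limit of 0.6, which 10 of the 23 and 83.7% of the other active genes reach.

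Short motifs were searched on both strands from 250 bases before to 50 after the start. TATAAA, the letters of the TATA box, was present in 4 of the 23 (17.4%, in Nr5a2, Socs2, Ddx58 and Nr0b1) and in 6.91% of the other active genes. A match on either strand anywhere in the window was counted, so these need not be TATA boxes. It was also present in 28.2% of the active genes that met the limit in WT cells alone, 13.6% of those in Cfp1-/- cells alone, 63.6% of the 11 set aside by name and 11.4% of the 579. GGGCGG, the GC box, was present in 52.2% against 67.8%, CCAAT in 30.4% against 39.2%, and CACGTG, the E-box of Myc proteins, in 13.0% against 11.1%. TTCCNGGAA, the palindrome bound by Stat proteins, was in none of the 23 windows (0 of 23) and in 1.24% of the others. The motifs GGGCGG and CCAAT can occur in the same promoter, and a match is only a match of letters. The median number of exons in the transcript with the longest coding sequence was 6 in the 23 genes and 11 in the other active genes, but also 6 in the genes that met the limit in WT cells alone and in Cfp1-/- cells alone, and 9 in the 579. The median span was 31.8 kb in the 23 and 29.0 kb in the other active genes. A span of 100 kb or more was found in 6 of the 23 (26.1%), Nfib, Dlc1, Sgk1, Nr5a2, Lef1 and Nrf1, and in 13.7% of the others. The share was 25.6% of the genes that met the limit in WT cells alone and 0 of 44 in Cfp1-/- cells alone. It was 0 of the 11 set aside by name and 11.6% of the 579.

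AU-rich elements in 3′ UTRs are known to shorten the life of many mRNAs. Of the 20 members with an annotated 3′ UTR of at least 100 bases, 9 (45%) had the core TATTTAT, against 31.4% of 6203 other active genes, and the median density of ATTTA was 2.10 per kb against 1.60. The core was also in 60% of 5 genes set aside by name and 35.5% of 31 that met the limit in WT cells alone. It was in 32.5% of 40 in Cfp1-/- cells alone and 33.8% of 523 of the 579 with a smaller loss in both lines. In the same order their median ATTTA density was 2.645, 1.41, 1.75 and 1.99 per kb. Any ATTTA was present in 85% of members, 83.6% of the 523 and 74.7% of other active genes. No difference was tested, nor was mRNA decay. Spry4 has 4 copies of the core. Of the other members the 3 with the most copies are shown, ties being taken by the density of ATTTA, as short stretches around the first copy with the core in capitals. Zic5 (chr14:122858422-122858444, minus strand) has 3 copies, Fam60a (chr6:148869771-148869793, minus strand) has 3, and Slc6a15 (chr10:102881768-102881790, plus strand) has 2.
Zic5: attagcccTATTTATtcagtatg
Fam60a: tacttctgTATTTATtTATTTAT
Slc6a15: ctacttaaTATTTATtgtggttt

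Whether the level of these genes differed between the untreated lines was tested in a contrast on which the rule set no limit. The rule did read these libraries, and it set its minimum in untreated WT cells only. That minimum favours genes that read high in untreated WT cells, and so lower values in Cfp1-/- cells. The 4-fold limit favours genes that read high in the untreated cells of either line. The p-values of these genes are thus not free of the choice. With 1 line per genotype, a difference cannot be assigned to the loss of Cfp1. Of the 23 genes 10 were lower and 3 higher in untreated Cfp1-/- cells at an adjusted p-value under 0.05 (quasi-likelihood test of edgeR, adjusted over 15758 genes by the Benjamini-Hochberg method). Over all genes tested 16.1% were lower and 17.9% higher, and over the 6717 active genes 24.5% were lower and 11.3% higher. The median log2 fold change was -0.60 over the 23, -0.15 over the active genes and 0.01 over all genes tested. With total counts in place of TMM the median of all genes tested rose to 0.20, that of the 23 to -0.40, and 7 were lower and 3 higher.

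Lef1 and Fam60a differed most. Lef1 was -1.80 (SE 0.41) on the log2 scale in untreated Cfp1-/- against untreated WT cells (edgeR adjusted p = 0.00888), and Fam60a was -1.73 (SE 0.14, adjusted p = 7.64e-05), with both Cfp1-/- libraries of each gene below both WT ones. Dusp27 was -1.47 (SE 0.38, adjusted p = 0.0155) and Zfp42 -1.31 (SE 0.33, adjusted p = 0.0129), and in both genes the 2 WT replicates were 1.57-fold to 1.97-fold apart. Ptch1, the Hedgehog receptor, was -1.31 (SE 0.26, adjusted p = 0.0046), and Socs2 was -1.14 (SE 0.24, adjusted p = 0.00675). Sall1 (-1.05, SE 0.32, adjusted p = 0.0299) and Otx2 (-0.94, SE 0.28, adjusted p = 0.0261) followed, and Nrf1 and Gm13152 had the smallest changes that passed, -0.60 (SE 0.14, adjusted p = 0.00944) and -0.59 (SE 0.18, adjusted p = 0.0282).

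The 3 genes that were higher in untreated Cfp1-/- cells were Nfib at 1.39 (SE 0.46, edgeR adjusted p = 0.0434), Nr5a2 at 1.32 (SE 0.39, adjusted p = 0.0257) and Ddx58 at 0.70 (SE 0.23, adjusted p = 0.0388) on the log2 scale. DESeq2's Wald test did not call Nfib (adjusted p = 0.145) or Nr5a2 (adjusted p = 0.0685). The network genes thus differed in direction, with Zfp42 and Sall1 lower, Nr5a2 higher, and Nr0b1 at -0.28 (SE 0.40) and Eras at -0.37 (SE 0.29) not past the threshold. The 19 other network genes were also mixed, 4 lower and 6 higher. Spry4 at -1.07 (adjusted p = 0.124) and Pim1 at -0.73 (adjusted p = 0.0689) did not pass, but did with the replicate number as a block (edgeR adjusted p = 0.000387 and 0.011). Kdm3a (-0.11, 95% interval -0.60 to 0.39), Slc6a15 (0.08, -0.50 to 0.66) and Dlc1 (0.17, -0.40 to 0.75) had the values nearest to 0, and each changed sign when a library was left out, Kdm3a also with total counts.

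With 2 replicates a group single libraries weigh heavily. Without replicate 1 of untreated WT cells 4 genes were lower and 3 higher. Without replicate 2 of untreated WT cells 8 were lower and 0 higher, and without replicate 1 or replicate 2 of untreated Cfp1-/- cells 5 were lower and 0 higher. Lef1, Fam60a and Ptch1 were called lower in all 16 settings run, and Socs2 in 15. Replicate 1 was above replicate 2 in all 4 groups for 10 of the 23 genes (43.5%), against 17.5% of active genes, and below it in all 4 for Lef1. The 3 members on chromosome 8, Zfp42, Sall1 and Dlc1, lie on a chromosome whose 823 genes tested had a median log2 fold change of -0.23 between the untreated lines, and the part of this shift in their values was not tested.

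**Figure D4:**
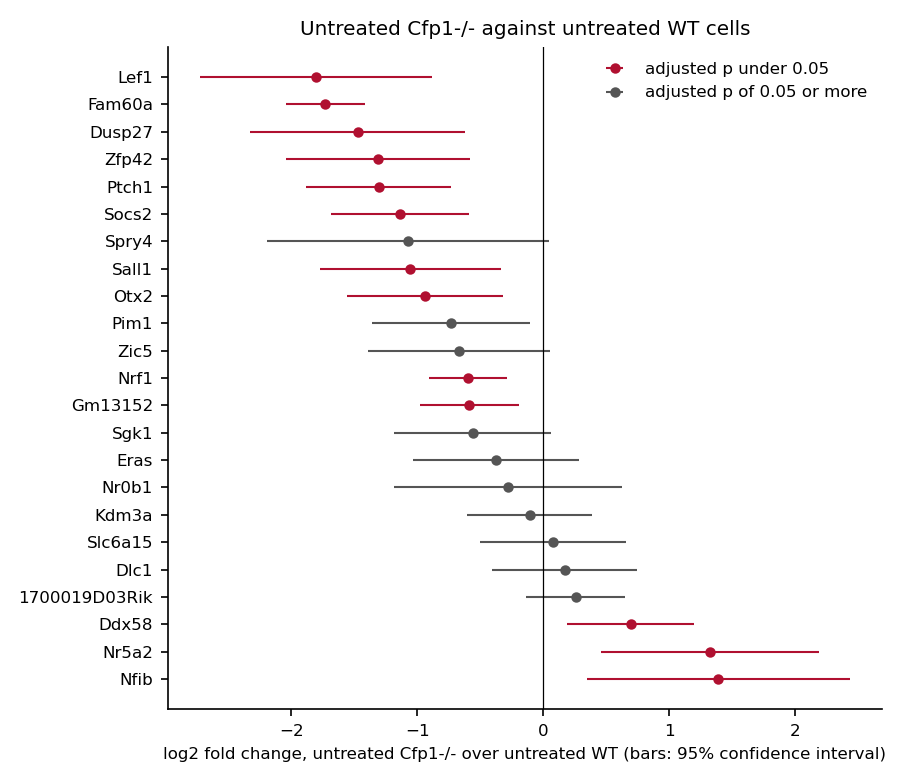
Log2 fold change of each of the 23 genes in untreated Cfp1-/- against untreated WT cells from edgeR's quasi-likelihood fit (n = 2 per group), with bars for the 95% confidence interval and red for an adjusted p-value under 0.05. The 10 red points left of 0 run from Lef1 (-1.80) to Gm13152 (-0.59), and the 3 right of 0 are Ddx58, Nr5a2 and Nfib.

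Promoter class and the difference between the untreated lines can be set side by side. Of the 10 members with a CpG-rich promoter 6 were lower in Cfp1-/- cells (Fam60a, Lef1, Nrf1, Ptch1, Otx2 and Sall1) and 1 was higher, with a median log2 fold change of -0.998. Of the 13 with a CpG-poor promoter 4 were lower and 2 higher, with a median of -0.37. Among the other active genes 24.5% of 5598 with a CpG-rich promoter and 24.2% of 1091 with a CpG-poor one were lower, with medians of -0.15 and -0.12. The difference between the 2 classes of members was not tested.

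Whether the 2 lines responded to doxorubicin to a different extent was tested by the interaction of line and treatment, within the limit that every member had to fall at least 4-fold in both. None of the 23 differed at an adjusted p-value under 0.05 in edgeR's quasi-likelihood test (0 of 23, beside 0.235% of all genes tested), and none did in DESeq2's Wald test. At an unadjusted p-value under 0.05 there were 3, beside 10.6% of all genes tested. These were Nrf1, whose fall was smaller in Cfp1-/- cells by 0.69 (95% interval 0.24 to 1.14, adjusted p = 0.261) on the log2 scale, Zfp42, smaller by 1.06 (0.03 to 2.10, adjusted p = 0.455), and Otx2, whose difference of -1.09 (-2.07 to -0.11, adjusted p = 0.423) was towards a larger fall. In each of these 3 genes the untreated Cfp1-/- level was below the WT level. With the replicate number as a block none passed, and when the affected run was also left out, a fit chosen after seeing the data, Nrf1 passed alone.

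The intervals of the response difference were wide. Over the 23 genes they reached from -2.07 for Otx2 to 2.31 for Lef1, so differences of this size remain within the error of these data and equal responses were not shown. For Lef1 the difference was 0.96 (-0.40 to 2.31), for Sall1 -0.72 (-1.77 to 0.32) and for Sgk1 -0.68 (-1.58 to 0.22). For the genes on chromosome X it was -0.87 for Eras and -0.13 for Nr0b1, and -0.54 and 0.22 without the affected run, so the sign of Nr0b1 depends on that run. The median difference was -0.09 over the 23 genes and 0.05 over the active genes.

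**Figure D5:**
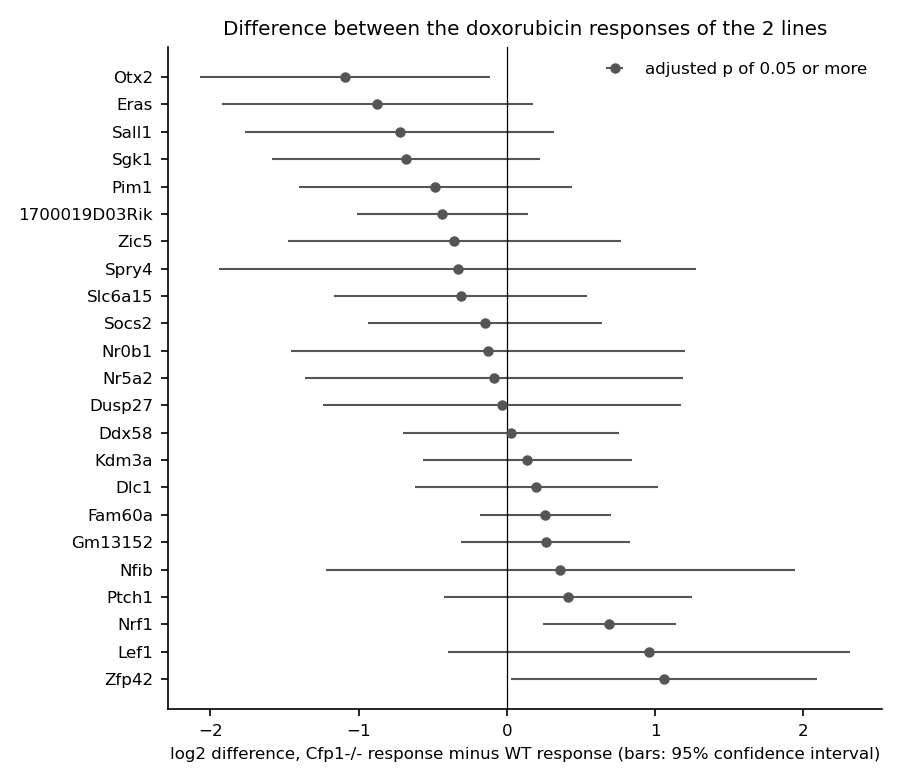
Log2 response to doxorubicin in Cfp1-/- cells minus that in WT cells for the 23 genes from edgeR's quasi-likelihood fit (n = 2 per group), with bars for the 95% confidence interval. Values below 0 stand for a larger fall in Cfp1-/- cells, and the intervals of Otx2, Nrf1 and Zfp42 do not cover 0, although none of the 23 passed after adjustment.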

How the data were processed

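Total RNA depleted of ribosomal RNA was made into strand-specific libraries, 16 deposited samples in 4 groups. The authors aligned reads to NCBIM37 (mm9) with STAR 2.2.1 and counted unambiguous sense reads on exons with HTSeq, so reads shared by overlapping or near-identical genes were not counted. They deposited a raw count per gene and technical run, and a normalized count per biological replicate, a signal made by scaling the summed runs with DESeq size factors. Both tables hold 22375 genes, of which 22324 were given a symbol by identifier.

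The rule was applied to the normalized counts, and fold changes were computed here from summed raw counts with edgeR 4.0.16 in R 4.3.3 (filterByExpr, TMM, 1 coefficient per group, glmQLFit, glmQLFTest, Benjamini-Hochberg adjustment over 15758 genes). All 23 members passed the filter. Each SE is the log2 fold change divided by the root of its F value. Members and gene lists were chosen with earlier results of these data known. All members are named, and the other genes were counted by list, of which some are not reported here by name. Alternatives were DESeq2 1.42.0, other scalings, no filter, other limits, first technical runs, a replicate block, each replicate left out, and, added after seeing the data, the fits without the affected run and the gene's outer end as start. Same-numbered replicates deviated together (correlations of 0.14 to 0.451 between groups), although nothing says what they share. The fits reported take them as unpaired, and the replicate block was run only as an alternative. On simulated counts with 200 genes changed 3-fold, the test between the untreated lines recovered 85.5% with 8 false calls and the response difference 65.5% with 12. The simulation gave every gene the same dispersion (0.0304) and no other difference between groups, so no fall after doxorubicin. Replicates of members lay up to 3.67-fold apart (Nfib in treated WT cells), so these rates do not carry over to the 23 genes. Starts, exons and 3′ UTRs came from the annotation of the same build, in which all 23 had the deposited coordinates. The binomial interval covers counting of genes only.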

Additional observations from a re-analysis of the deposited data

How the results depend on the processing

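The number of members was 22 with TMM library sizes, 13 with total counts, 35 and 20 with a mean count limit of 250 and 1000, 97 and 12 with a 3-fold and a 5-fold limit, and 25 with first technical runs alone or without the affected run (22 of the 23 in both). With 1 replicate left out it ranged from 22 to 33. Between the untreated lines, 4 to 12 members were lower and 0 to 3 higher in Cfp1-/- cells with 1 replicate left out, each such fit taking the lone sample to vary like the other groups. DESeq2 called 1 higher (Ddx58) and 11 lower. With the replicate block 12 were lower and 3 higher, which added Spry4 and Pim1 and changed no other call, and 0 responded differently. When the affected run was left out as well 1 member, Nrf1, responded differently. Reversals were found only in members that had not passed the test. With total counts Kdm3a was at 0.084 between the untreated lines. With 1 replicate left out the log2 difference between the untreated lines ranged from -0.78 to 0.49 for Nr0b1, from -0.14 to 0.35 for Slc6a15, from -0.12 to 0.55 for Dlc1 and from -0.31 to 0.13 for Kdm3a. The response difference of Nr0b1 ranged from -0.94 to 0.57 with 1 replicate left out, and was 0.37 with first technical runs, 0.22 without the affected run and 0.12 with the block as well. The share of CpG-rich promoters in members minus that in all genes tested was -18.7 percentage points, beside -40.2 against other active genes. The cause of these changes was not tested beyond what each setting leaves out. Genes with few counts in treated libraries are limited by depth, such as Eras with 32 to 93 counts per treated library.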

Other observations

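Several genes met the 4-fold limit in both lines but were counted too low in untreated WT cells to be members. Foxd3, a regulator of the exit from the naive state, had a mean of 409 normalized counts there, of which 6.56% was left in WT and 4.89% in Cfp1-/- cells. Bmp4, a growth factor of the TGF-β family, had a mean of 454, of which 10.1% and 6.53% was left. Fgf5, a marker of the primed state, had 384 in untreated WT and 36.1 in untreated Cfp1-/- cells, with 6.01% and 12.2% left.

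The genes set aside by name had values like those of the members. For Zic2, a paralogue of Zic5, 6.19% was left in WT and 3.27% in Cfp1-/- cells. For Pax6 4.09% and 11.5% was left, for Mycn 20.3% and 5.99%, and for Nanog 14.1% and 16.8%. The 7 histone genes ranged from 15.9% to 22.7% in WT and from 17.3% to 24.1% in Cfp1-/- cells.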
